A study of Mus musculus with 9 samples.

Results

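Crystallins are the soluble proteins that fill the cells of the eye lens, and some of them are also made elsewhere in the eye and in the nervous system. The 9 crystallin genes described here are Cryab and 8 lens-type crystallins (Cryaa, Cryba1, Cryba2, Cryba4, Crybb1, Crybb2, Crybb3 and Crygs), out of 50764 genes in the deposited count table, and they were found in it by gene symbol. They were selected on values of these same libraries, since lens genes had been lower with Olig2 than with GFP in an earlier analysis of them. Their levels are therefore a description, and no test of the members themselves is read as support for a difference.

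The libraries hold polyadenylated RNA from wild-type adult male mice, of cells collected as retinal ganglion cells, which send their axons through the optic nerve to the brain. There were 3 groups of 3 libraries, named for the adeno-associated virus (AAV2) injected into the vitreous in a volume of 1.5 µL. The Olig2 and Olig3 groups received virus coding for the basic helix-loop-helix transcription factor of that name, and the GFP group received virus coding for green fluorescent protein. All 3 groups shared the injury, a crush of the optic nerve (ONC), and the labels give 14 days for both the virus and the crush. The design text of the series says that the injection was done so as to spare the lens. Beads against CD90.2 (Thy1) enriched the cells, fluorescent ones were then taken by hand under a microscope, and 10 to 20 of them, with limits that differ between parts of the labels, went into each library and through 20 cycles of amplification. The sources used here give neither the promoter of the virus nor whether each library is a separate animal, so every p-value is set against a spread between libraries that may be technical. The title of the series writes the virus as Olig1/2, but group names here follow the sample labels.

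The alpha crystallins, Cryaa and Cryab, are small heat shock proteins that hold unfolding proteins in solution. Cryaa is made mainly in the lens, whereas Cryab is also made in heart, muscle and glia and is induced by stress in many cells, retinal cells among them. The beta and gamma crystallins share a fold of their own, have no chaperone domain and are packed at high concentration into lens fibres, although several are also known from injured or ageing retina. Maf proteins, a family of leucine zipper transcription factors, bind near the start of many crystallin genes in the lens.

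The start regions of the lens-type members are shown because those genes went up and down together across the libraries. RefSeq's table for build GRCm38.p6 held the region from 250 bases before to 50 bases after the start for all 8 of them. Capitals mark TGCTGA, the core of the sequence that Maf proteins bind, or TCAGCA, the same core read on the other strand. The first 4 sequences below hold it and Crybb2 does not.
Cryaa, chr17:31677681-31677980, plus strand: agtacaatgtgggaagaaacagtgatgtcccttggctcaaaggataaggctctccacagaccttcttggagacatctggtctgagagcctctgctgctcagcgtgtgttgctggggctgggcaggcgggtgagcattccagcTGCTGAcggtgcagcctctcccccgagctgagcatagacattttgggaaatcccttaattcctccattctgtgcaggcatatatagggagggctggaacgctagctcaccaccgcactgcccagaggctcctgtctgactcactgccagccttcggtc
Cryba1, chr11:77725244-77725543, minus strand: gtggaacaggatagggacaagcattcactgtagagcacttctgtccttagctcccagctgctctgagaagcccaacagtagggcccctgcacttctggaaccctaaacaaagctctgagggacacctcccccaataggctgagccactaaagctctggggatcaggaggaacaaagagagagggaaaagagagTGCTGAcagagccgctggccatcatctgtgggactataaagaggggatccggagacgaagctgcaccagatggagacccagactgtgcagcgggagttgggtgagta
Crybb1, chr5:112255570-112255869, plus strand: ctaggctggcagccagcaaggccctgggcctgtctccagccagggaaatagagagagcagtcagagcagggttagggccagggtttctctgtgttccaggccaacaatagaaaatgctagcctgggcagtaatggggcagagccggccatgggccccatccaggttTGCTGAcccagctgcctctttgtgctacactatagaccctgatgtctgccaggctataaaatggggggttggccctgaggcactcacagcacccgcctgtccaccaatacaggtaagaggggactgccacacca
Crybb3, chr5:113081535-113081834, minus strand: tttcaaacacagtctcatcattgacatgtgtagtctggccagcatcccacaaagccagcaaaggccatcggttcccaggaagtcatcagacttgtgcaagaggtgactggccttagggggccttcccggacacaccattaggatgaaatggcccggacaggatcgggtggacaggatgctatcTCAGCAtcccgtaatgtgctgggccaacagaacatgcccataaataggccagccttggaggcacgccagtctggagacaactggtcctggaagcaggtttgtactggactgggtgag
Crybb2, chr5:113070068-113070367, minus strand: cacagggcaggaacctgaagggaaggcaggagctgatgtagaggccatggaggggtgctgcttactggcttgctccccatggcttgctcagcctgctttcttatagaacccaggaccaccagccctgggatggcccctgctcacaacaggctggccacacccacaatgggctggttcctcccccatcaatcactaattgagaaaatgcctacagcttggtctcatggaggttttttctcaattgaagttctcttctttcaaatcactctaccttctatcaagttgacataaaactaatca
The core lay 108 bases before the start in Cryaa, 57 in Cryba1, 84 in Crybb1 and 67, on the other strand, in Crybb3. On either strand it was present in 7 of the 8 lens-type members, against 19.5% of all 32817 start regions of that length. TATAAA on the strand of the gene was present in 4 of the 8, against 8.32% of all. These matches describe letters and say nothing of binding.

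Libraries held 5355691 to 6979851 counts. A gene with 0 counts could still have a level of up to 3 counts, which is 0.430 to 0.560 CPM (counts relative to the total of the library). The cDNA was amplified without molecular identifiers, so that limit and all counting intervals cover counting error only. Levels of single genes are CPM scaled by TMM, a factor that makes libraries of different composition comparable, and are given as mean ± SD over 3 libraries. The labelled cell type was a minor part of the RNA: 12 ganglion cell markers held 0.0204 to 0.0419% of the counts with Olig2, 0.00938 to 0.0312% with Olig3 and 0.0937 to 0.215% with GFP, whereas 16 rod genes held 8.81 to 15.6%, 6.94 to 17.2% and 5.33 to 8.07% in the Olig2, Olig3 and GFP groups. In such pools, fewer cells of a type and less RNA per cell cannot be told apart. Some libraries stood apart: Olig3 libraries 1 and 3 had 16188 and 14434 detected genes against 18184 to 21338 elsewhere, and the noncoding RNA Malat1 took 11.7% and 6.15% of the counts in Olig2 libraries 2 and 3 and 8.54% in Olig3 library 2.

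Cryab had at least 53 counts in every library, and its level was lower in both factor groups than in the GFP group. It had 27.0, 40.8 and 40.9 CPM in Olig2 libraries 1, 2 and 3 (189, 171 and 228 counts). In Olig3 libraries 1, 2 and 3 it had 42.5, 45.8 and 7.78 CPM (288, 183 and 53 counts). In GFP libraries 1, 2 and 3 it had 163.6, 320.8 and 158.0 CPM (1093, 2527 and 1180 counts). All 6 factor libraries lay below all 3 GFP libraries, and Olig3 library 3 was the lowest of the 9. The means were 36.2 ± 8.01 CPM with Olig2 and 32.0 ± 21.1 with Olig3, against 214 ± 92.4 with GFP, or 5.91-fold and 6.69-fold lower. On the log2 scale of the edgeR model the changes were -2.57 (SE 0.545) with Olig2 and -2.75 (SE 0.549) with Olig3. Olig3 over Olig2 came to -0.18 (SE 0.523), and the libraries of these groups overlapped. Each SE of an edgeR change given here is the size of the change divided by the square root of the test's F. The test itself returns no SE, so these values are approximate, and rough for genes near 0 counts in a group.

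**Figure D1:**
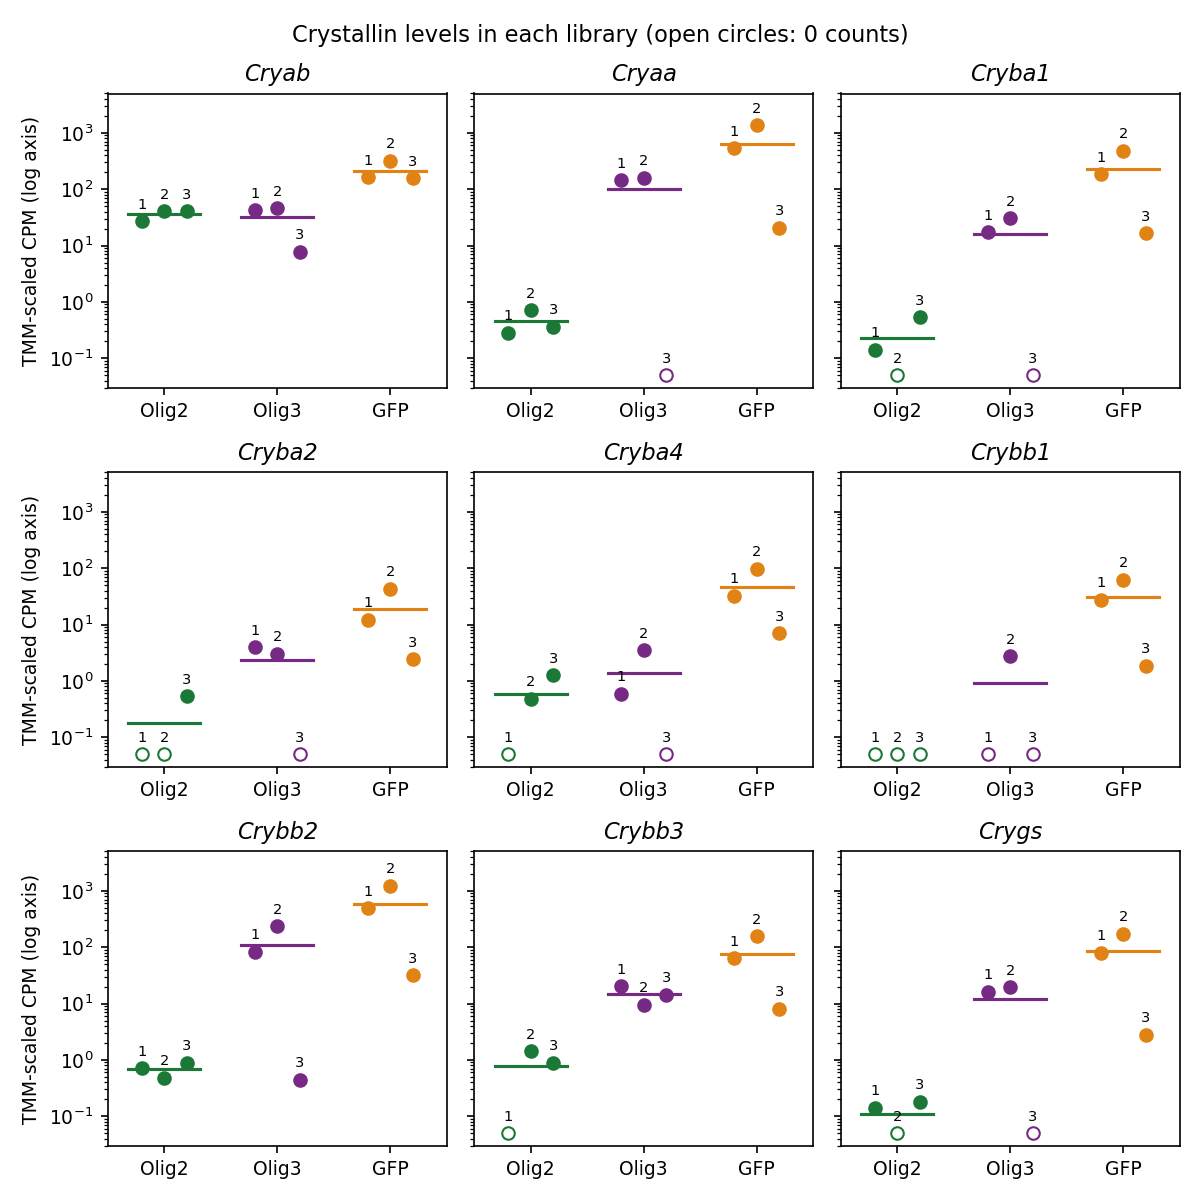
Each panel shows 1 crystallin in Olig2, Olig3 and GFP libraries, with TMM-scaled CPM on a log axis, the library number above each point, a bar at the group mean, and open circles for libraries with 0 counts. Cryab stays between 7.78 and 320.8 CPM, while the 8 lens-type genes are at or near 0 with Olig2, high in Olig3 libraries 1 and 2 for most genes, and highest in GFP library 2.

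The lens-type alpha crystallin covered a far wider range than Cryab. Cryaa, the chaperone of the lens, had 0.285, 0.715 and 0.359 CPM in the Olig2 libraries, which are 2, 3 and 2 counts. The Olig3 libraries had 145, 160.3 and 0 CPM (984, 641 and 0 counts). The GFP libraries had 538, 1371 and 20.8 CPM (3593, 10801 and 155 counts). Every Olig2 library was thus below every GFP library, whereas Olig3 libraries 1 and 2 lay above GFP library 3 and Olig3 library 3 had no read. The mean was 0.453 ± 0.230 CPM with Olig2 and 102 ± 88.5 with Olig3, against 643 ± 681 with GFP, which is 6.32-fold lower with Olig3 (log2 changes -10.51, SE 2.18, with Olig2 and -2.66, SE 1.39, with Olig3). With 7 counts over the Olig2 group, the pooled counts were lower than with GFP by a ratio of 2020 (95% counting interval 981 to 5030). Pooled ratios here and below use library totals without TMM. The ratio of the scaled means of Cryaa was 1419.

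The 3 acidic beta crystallins had the same order of groups. Cryba1 encodes a pair of beta A crystallins from 1 transcript and is also known from retinal astrocytes. It had 0.143, 0 and 0.538 CPM in the Olig2 libraries, 17.1, 30.5 and 0 in the Olig3 libraries, and 185.9, 481.7 and 16.6 in the GFP libraries. Olig3 libraries 1 and 2 lay above GFP library 3 here too, though by less than for Cryaa. Its means were 0.227 ± 0.279 CPM with Olig2 (4 counts in all), 15.9 ± 15.3 with Olig3 and 228 ± 235 with GFP, so it was 14.4-fold lower with Olig3, and its pooled counts were lower by a ratio of 1260 with Olig2 (95% counting interval 490 to 4610). Cryba2, an acidic beta crystallin of low level throughout, had counts of 0, 0 and 3 with Olig2, 27, 12 and 0 with Olig3, and 82, 338 and 18 with GFP. Against GFP its pooled counts were lower by a ratio of 142 with Olig2 (95% counting interval 48.3 to 691), and its mean was 8.25-fold lower with Olig3. Cryba4, the third acidic member, had 0, 0.477 and 1.26 CPM with Olig2, 0.590, 3.50 and 0 with Olig3, and 32.2, 97.4 and 6.96 with GFP. It was the lens-type member whose Olig3 libraries were all below the GFP libraries, with means of 0.578 ± 0.634 CPM with Olig2 and 1.36 ± 1.88 with Olig3 against 45.5 ± 46.7 with GFP. That is 33.4-fold lower with Olig3 and 78.8-fold lower with Olig2. By pooled counts without TMM, the ratio with Olig2 was 112 (95% counting interval 58.6 to 245).

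Among the 3 basic beta crystallins, Crybb2 was abundant and Crybb1 scarce. Crybb1 had no count in any Olig2 library, 0, 11 and 0 counts in the Olig3 libraries, and 184, 489 and 14 in the GFP libraries. Against GFP it was at least 223-fold lower with Olig2, taking 3 counts over the group as the floor, and 33.3-fold lower with Olig3, where library 2 gave all the reads. Crybb2 is the beta crystallin most often linked to the retina, where it has been tied to axon growth of ganglion cells in rodents. It had 0.713, 0.477 and 0.897 CPM with Olig2, 83.8, 237.9 and 0.440 with Olig3, and 496.1, 1233 and 32.0 with GFP. Its Olig3 libraries spread from the Olig2 level to well above GFP library 3. The means were 0.696 ± 0.211 CPM with Olig2, 107 ± 121 with Olig3 and 587 ± 605 with GFP, which is 5.47-fold lower with Olig3, and by pooled counts a ratio of 1080 lower with Olig2 (12 counts, 95% counting interval 615 to 2080). Crybb3 had 0, 1.43 and 0.897 CPM with Olig2, 20.4, 9.50 and 14.2 with Olig3, and 63.2, 157 and 8.03 with GFP. It differed from the other lens-type members in Olig3 library 3, where it had 97 counts, and its 3 Olig3 libraries all lay above the Olig2 libraries and above GFP library 3. Crybb3 means were 0.776 ± 0.723 CPM with Olig2, 14.7 ± 5.44 with Olig3 and 76.1 ± 75.3 with GFP, so the Olig3 mean was 5.18-fold below GFP. It was 18.9-fold above Olig2 (edgeR adjusted p = 0.645), a ratio that rests on few Olig2 counts and has no counting interval here. With 11 counts over the Olig2 group, its pooled counts were lower than with GFP by a ratio of 152 without TMM (95% counting interval 84.8 to 305). The ratio of its scaled means was 98.0.

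Crygs, the gamma crystallin made late in lens fibre growth, had 1, 0 and 1 count in the Olig2 libraries. It had 16.1, 19.5 and 0 CPM with Olig3 and 79.9, 174.7 and 2.81 with GFP. GFP library 3 was again far below the other GFP libraries and below Olig3 libraries 1 and 2. Against GFP the pooled counts of Crygs were lower by a ratio of 939 with Olig2 (95% counting interval 260 to 7761), and the Olig3 mean of 11.9 ± 10.4 CPM was 7.23-fold below the GFP mean of 85.8 ± 86.1.

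None of the 9 members passed an adjusted p of 0.05 in edgeR's quasi-likelihood test over 15609 genes, in any of the 3 comparisons, where 0.0513% of all genes passed between Olig2 and GFP, 0.205% between Olig3 and GFP and 0.0384% between Olig3 and Olig2. The lowest Benjamini-Hochberg adjusted p of a member was 0.129 with Olig2 and 0.0799, that of Cryab, with Olig3, and it was 0.645 between the factors. At an unadjusted p under 0.05 in edgeR, 9 of 9 were lower with Olig2 than with GFP (2.08% of all genes) and 5 of 9 were lower with Olig3 (6.37%), while 5 of 9 were higher with Olig3 than with Olig2 (2.07%). DESeq2 called 8, 2 and 3 members in these comparisons, beside 90, 502 and 82 of all 15609 genes. Limma-voom called 0, 1 and 0, the 1 being Cryab with Olig3, beside 6, 78 and 1 of all genes. Without any overlap between libraries, 9 of 9 were below GFP with Olig2 (8.35% of all genes), 2 of 9 below GFP with Olig3 (10.0%), namely Cryab and Cryba4, and 1 of 9, Crybb3, above Olig2 with Olig3 (4.41%). The median difference in mean log2 CPM over the 9 was -5.64 with Olig2 and -3.45 with Olig3 against GFP, beside 0.06 and -0.18 over all genes tested. Between Olig3 and Olig2 it was 3.47, beside -0.23. Both comparisons with GFP share the 3 GFP libraries, and since the members were chosen by these values, nothing further is read from the counts.

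The contrast between Cryab and the lens-type crystallins lay in the size of the gap with Olig2 and in the spread within the GFP group, while with Olig3 the gaps of the means were alike. Summed over the 8 lens-type genes, the level was 1.28, 3.10 and 4.67 CPM in the Olig2 libraries (9, 13 and 26 counts). It was 287, 467 and 14.7 CPM in the Olig3 libraries (1946, 1867 and 100 counts), against 1435, 3619 and 91.4 CPM in the GFP libraries (9587, 28513 and 683 counts). The Olig2 libraries were the 3 lowest of the 9, whereas the Olig3 and GFP libraries each held 2 high libraries and 1 low one. The group means were 3.02 ± 1.69, 256 ± 228 and 1715 ± 1780 CPM for Olig2, Olig3 and GFP. The sum was thus 569-fold lower with Olig2 and 6.69-fold lower with Olig3 than with GFP, beside 5.91-fold and 6.69-fold lower for Cryab. The GFP mean of the sum rested on library 2, and without it was 763 CPM, whereas that of Cryab was 161 CPM without library 2. Without GFP library 2 the edgeR log2 changes of the 8 lens-type genes, Olig3 against GFP, were nearer to 0, such as -1.45 for Cryaa and -1.30 for Crybb2, against -2.33 for Cryab.

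**Figure D2:**
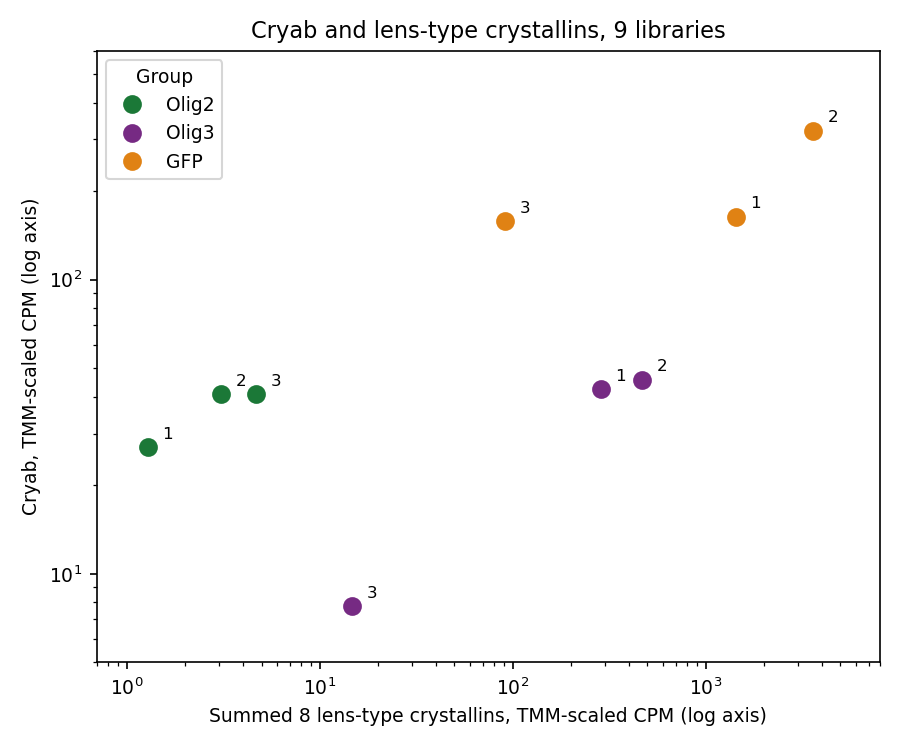
Each point is 1 library, with the summed level of the 8 lens-type crystallins on the horizontal axis and Cryab on the vertical axis, both in TMM-scaled CPM on log axes, coloured by group (Olig2, Olig3, GFP) and numbered. GFP library 3 lies level with GFP library 1 in Cryab (158.0 and 163.6 CPM) but 15.7-fold lower in the lens-type sum.

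Within the GFP group the pair of measures came apart. GFP library 2 exceeded GFP library 3 by 39.6-fold in the lens-type sum and by 14.0 to 66.1-fold in the single lens-type genes, but by 2.03-fold in Cryab. GFP library 1 exceeded library 3 by 15.7-fold in the sum and by 1.04-fold in Cryab. Between GFP libraries 2 and 1 the gaps were alike, 2.19 to 3.50-fold for the lens-type genes and 1.96-fold for Cryab. The share of Cryab among the counts of all 9 members shows the same thing. It was 95.5% (95% exact Clopper-Pearson interval 91.5 to 97.9), 92.9% (88.2 to 96.2) and 89.8% (85.4 to 93.2) in the Olig2 libraries. In the Olig3 libraries it was 12.9% (11.5 to 14.4), 8.93% (7.73 to 10.2) and 34.6% (27.1 to 42.7). In the GFP libraries it was 10.2% (9.67 to 10.8), 8.14% (7.84 to 8.45) and 63.3% (61.1 to 65.5). Cryab therefore held most of the crystallin counts in all Olig2 libraries and in GFP library 3, and the smaller part in the other 5 libraries.

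Among the lens-type genes the levels moved together from library to library. Pearson's r of log2 levels over the 9 libraries ran from 0.787 to 0.994 over their 28 pairs, with a median of 0.915, and from 0.571 to 0.902 between Cryab and each of them, with a median of 0.791. These values describe 9 libraries that fall into 3 groups, and the genes of a library share its depth. The makeup of the pool was nearly the same in GFP libraries 1 and 2, where Cryaa gave 37.5 and 37.9% of the lens-type counts and Crybb2 34.6 and 34.1%. In GFP library 3 Cryaa was at 22.7%, Crybb2 at 35.0%, and Cryba1, Crybb3 and Cryba4 held 18.2, 8.78 and 7.61%. Olig3 library 1 had 50.6% Cryaa and 29.2% Crybb2, and Olig3 library 2 had 34.3% and 50.9%, so their order was opposite in those libraries. Olig3 library 3 held 97 reads of Crybb3 and 3 of Crybb2 among its 100, and no read of the other 6 genes.

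**Figure D3:**
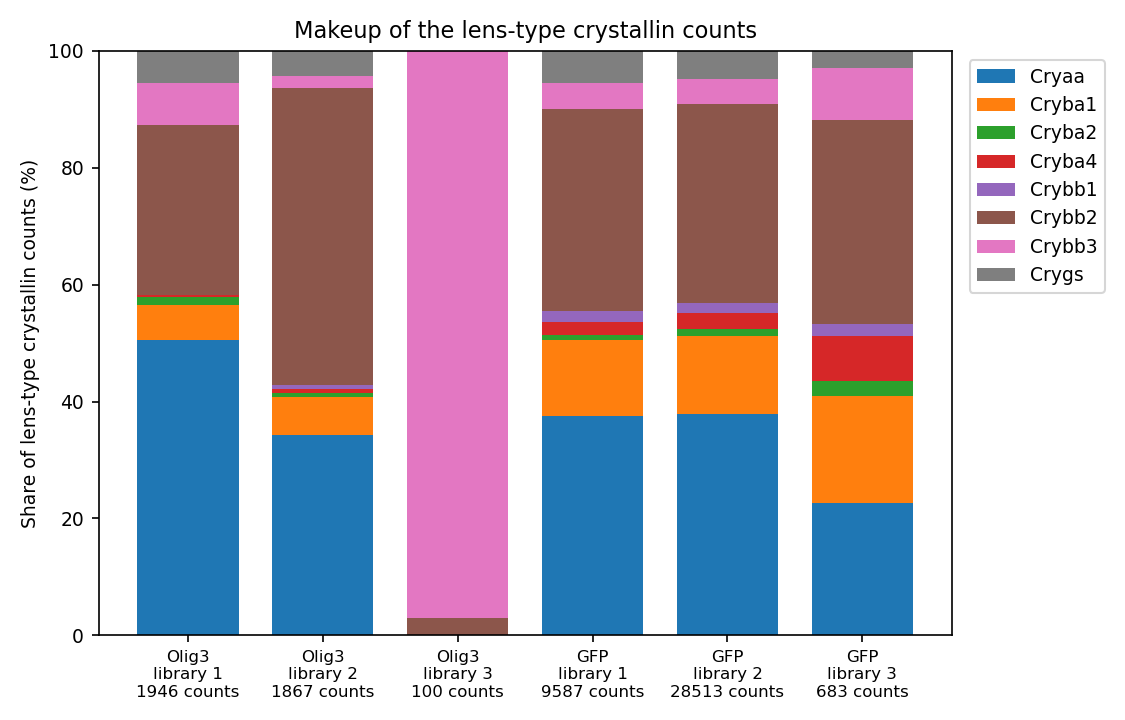
Stacked bars give each lens-type crystallin's share of the lens-type counts, in percent, in the 6 libraries with at least 100 such counts (Olig3, then GFP), with the count under each bar. GFP libraries 1 and 2 have nearly the same makeup, while Olig3 library 3 is 97.0% Crybb3.

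Per kilobase of exon, which allows genes to be compared, the order in the GFP group was Cryaa (310 ± 328 CPM per kb), Crybb2 (292 ± 301), Cryab (145 ± 62.5), Cryba1 (143 ± 148), Crygs (98.1 ± 98.4), Cryba4 (54.3 ± 55.7), Crybb3 (32.6 ± 32.3), Crybb1 (31.0 ± 30.7) and Cryba2 (16.1 ± 17.7). No gap between neighbours in this order exceeded the larger of their SDs. Those SDs hold the differences between libraries that the lens-type genes share, so they do not measure the order within a library. In the Olig3 group Crybb2 (53.4 ± 59.9 CPM per kb), Cryaa (49.0 ± 42.6) and Cryab (21.6 ± 14.2) came first, again within their spread. In the Olig2 group Cryab stood at 24.5 ± 5.42 CPM per kb, and the next, Cryba4, at 0.689 ± 0.757, a gap larger than the spread of either.

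The members lie on 6 chromosomes of mm10: Cryab at chr9:50751325-50756636, Cryaa at chr17:31677807-31681733, Cryba1 at chr11:77718615-77725283, Cryba2 at chr1:74889934-74893143 and Crygs at chr16:22805203-22811577. The other 4 form neighbouring pairs on chromosome 5. Cryba4 (chr5:112246493-112252518) and Crybb1 (chr5:112255815-112269585) are 3296 bases apart, and Crybb2 (chr5:113058258-113070117) and Crybb3 (chr5:113075839-113081584) are 5721 bases apart. In the GFP group, Crybb2 averaged 292 CPM per kb beside 32.6 for Crybb3, and Cryba4 54.3 beside 31.0 for Crybb1. Neither gap exceeded the larger SD of its pair, but the genes of a pair share the differences between libraries. In GFP libraries 1, 2 and 3, Crybb2 had 496.1, 1233 and 32.0 CPM beside 63.2, 157 and 8.03 for Crybb3. Cryba4 had 32.2, 97.4 and 6.96 CPM beside 27.5, 62.1 and 1.87 for Crybb1. The higher gene of each pair has the shorter exons, so it was higher per kilobase in each GFP library. No source used here gives the strand setting of the counting, so reads of overlapping genes may not be separable. Cryab overlaps Hspb2, a small heat shock gene on the opposite strand, which had 13 counts over all libraries, and Cryaa overlaps an antisense gene with 0. Cryba1 lies within Nufip2 on the other strand, which had 2347 counts in all, and Crybb2 overlaps a processed pseudogene with 11.

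Other genes of the lens were read against the members through lists that were drawn up with earlier results of these data known. Of 7 further gamma crystallins, structural proteins of the lens fibre core, 3 passed the filter on low counts, and 0 of them passed the edgeR test in any comparison. At an unadjusted p under 0.05 in edgeR, 3 were lower with Olig2 (2.08% of all genes) and 2 with Olig3 (6.37%) than with GFP. DESeq2 called 2 and 1, and limma-voom called 0 in both. These 3 had no count with Olig2 and passed the filter through libraries of the other groups. With Olig2 they could therefore only come out lower, and the counts of calls are a description. Crygc had 0 counts in all 3 Olig2 libraries, 12, 4 and 11 in the Olig3 libraries, and 149, 390 and 9 in the GFP libraries. Crygb had 0 counts with Olig2, 11, 4 and 0 with Olig3, and 68, 213 and 1 with GFP. GFP library 3 was low here as it was for the members. Crygd likewise had 0 counts with Olig2, 1, 2 and 0 with Olig3 and 42, 67 and 15 with GFP. The summed level of the 7 was 0 to 0.184 CPM with Olig2, 1.86 to 3.73 with Olig3 and 3.96 to 97.6 with GFP, before scaling.

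Membrane, cytoskeletal and other genes of lens fibres were sparse, and of the 4 tested 0 were called in any comparison by edgeR, DESeq2 or limma-voom. At an unadjusted p under 0.05 in edgeR, 1 was lower with Olig2 than with GFP (2.08% of all genes) and 1 higher with Olig3 than with Olig2 (2.07%). Both were Lctl, named after its values were seen, which had 0 counts with Olig2 and so could lie only in those directions. Of 12 such genes in the table, 3, 3 and 5 had a count in Olig2 libraries 1, 2 and 3, and 6, 9 and 3 in the Olig3 libraries. The count was 11, 10 and 4 in the GFP libraries, so the 4 libraries highest in lens-type crystallins were those with most of these genes. Grifin, a galectin-related protein of the lens, had 0 counts with Olig2, 0, 3 and 0 with Olig3 and 47, 97 and 0 with GFP. Bfsp2, the beaded filament protein phakinin, had 0, 1.91 and 2.69 CPM with Olig2, 1.18, 5.00 and 0 with Olig3, and 5.69, 43.7 and 2.81 with GFP (edgeR adjusted p = 1 for Olig2 and 0.508 for Olig3 against GFP). Tdrd7 and Caprin2, RNA granule proteins that other tissues also express, made up most of the list and did not follow the crystallins. Tdrd7 averaged 187 CPM with Olig2, 170.4 with Olig3 and 154 with GFP. Caprin2 averaged 44.9, 43.8 and 50 CPM in the same groups.

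Regulators of lens development, of which 6 of 10 were tested, gave 0 calls in edgeR, DESeq2 and limma-voom in each comparison. At an unadjusted edgeR p under 0.05, 1, Prox1, was higher with Olig3 than with GFP, as were 899 of all 15609 genes. Pax6, the eye field regulator that also acts in amacrine and ganglion cells, averaged 162 CPM with Olig2, 173 with Olig3 and 166.5 with GFP. Prox1, needed for lens fibre elongation and also made in horizontal and other retinal cells, averaged 92.3 CPM with Olig2, 168 with Olig3 and 77.0 with GFP. Maf itself, the lens fibre factor, had 4.42, 7.63 and 12.4 CPM with Olig2, 17.0, 2.5 and 0 with Olig3 and 25.7, 7.87 and 0.803 with GFP, and the groups overlapped. Six3 averaged 65.8, 79.7 and 74.8 CPM. Named after their values were seen, Foxe3, a factor of the lens epithelium, had 2 counts, in Olig3 library 2, and Pitx3 and Sox1, which neurons also use, had none in any library. Hsf4, the heat shock factor of the lens, had 6 counts over the Olig2 group, 10 over the Olig3 group and 2 over the GFP group. The part of lens cells or lens RNA in the members' levels was not tested.

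**Figure D4:**
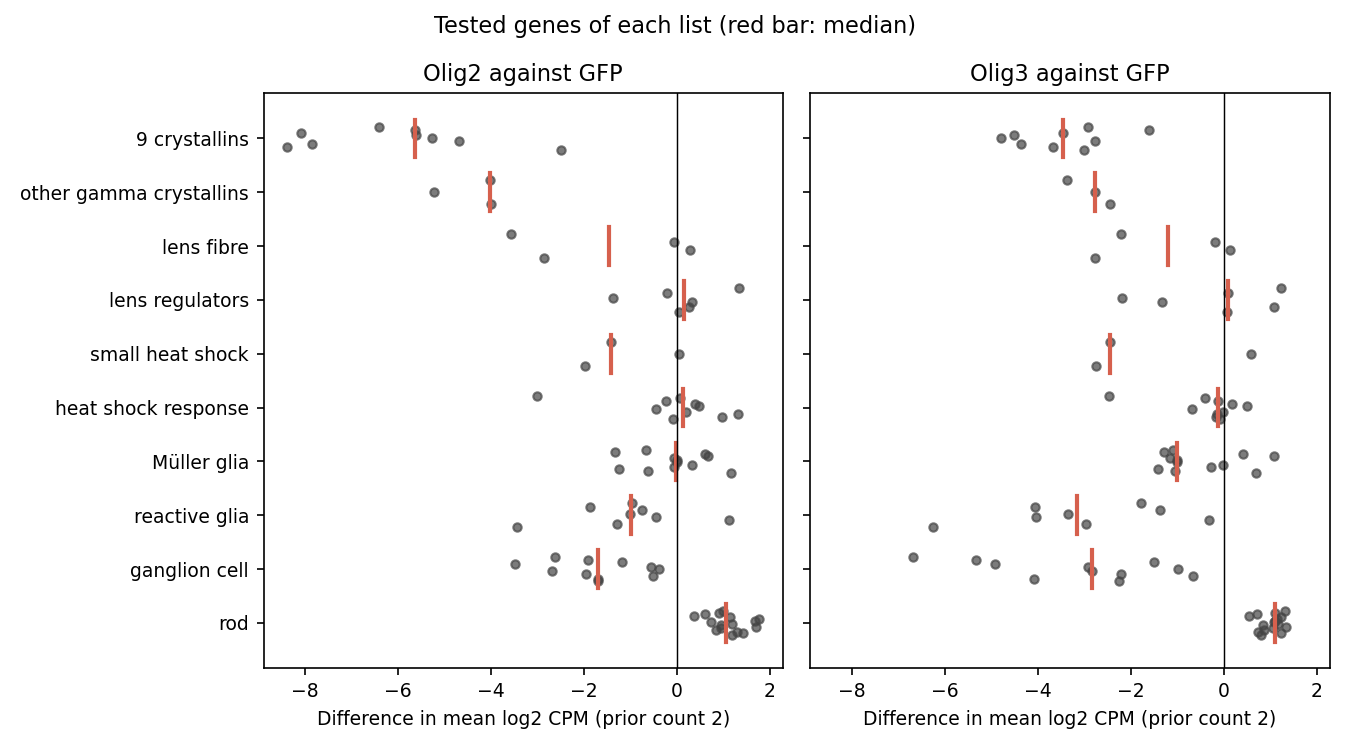
Each dot is 1 tested gene of a list, with the difference in mean log2 CPM (prior count 2) against GFP on the horizontal axis, Olig2 on the left and Olig3 on the right, and a red bar at the median. The 9 crystallins and the other gamma crystallins lie far to the left (medians -5.64 and -4.01 with Olig2, -3.45 and -2.78 with Olig3), and heat shock response genes lie around 0 (0.13 and -0.13). The other gamma crystallins shown had no count with Olig2, so only the left was open to them there.

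Among other small heat shock genes the abundant one did not share the gap of Cryab, and the scarce ones were lower with the factors. Of 7 other small heat shock genes 3 passed the filter, and 0 were called against GFP by edgeR, DESeq2 or limma-voom or lay at an unadjusted p under 0.05. The median difference in mean log2 CPM of the 3 against GFP was -1.41 with Olig2 and -2.44 with Olig3, beside -2.50 and -3.01 for Cryab. Hspb6, which forms mixed complexes with Cryab, had 193, 225.5 and 284 CPM with Olig2, 429, 297 and 292 with Olig3 and 167, 311 and 214 with GFP. Its levels overlapped between factor and GFP groups, unlike those of Cryab. Hspb8, a partner of the cochaperone Bag3, averaged 4.09 CPM with Olig2, 3.27 with Olig3 and 13.4 with GFP, and Hspb1 averaged 1.33, 1.00 and 4.47 CPM, neither past the test. The factor libraries of Hspb1 all lay below the GFP libraries, as those of Cryab did, but by little at low counts. Olig3 library 2 had 3.00 CPM of Hspb1 (12 counts) beside 3.08 in GFP library 3 (23 counts). Of all genes, 8.35% lay below GFP without overlap with Olig2 and 10.0% with Olig3. Bag3 itself, named after its values were seen, had 0.143, 2.86 and 1.97 CPM with Olig2, 5.90, 5.00 and 0 with Olig3 and 12.0, 7.11 and 18.9 with GFP, also without overlap (edgeR adjusted p = 1 and 0.663 against GFP). The 10 genes of the general heat shock response, Bag3 among them, had medians of 0.13 with Olig2 and -0.13 with Olig3 against GFP. Of these, 0 were called by edgeR, DESeq2 or limma-voom. At an unadjusted edgeR p under 0.05 there was 1 in each comparison with GFP. Hspa1b was higher with Olig2, as were 407 of all 15609 genes, and Dnajb1 lower with Olig3 (6.37% of all genes). Hspa1a and Hspa1b, also named after their values were seen, lay the other way from Bag3 with Olig2. They averaged 56.3 and 33.4 CPM with Olig2, without overlap with GFP at 29.5 and 13.4 CPM. With Olig3 they averaged 30.3 and 14.3 CPM and overlapped GFP. Hsp90aa1, an inducible cytosolic chaperone, averaged 2335 CPM with Olig2, 2354 with Olig3 and 1681 with GFP. Hspa8, the constitutive Hsp70, averaged 2256, 1944 and 1961 CPM in these groups. Hspd1, the mitochondrial chaperonin, averaged 153, 165 and 178 CPM, and Dnajb1, an Hsp40 cochaperone, 77.3, 64.8 and 110.0 CPM.

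Genes of reactive glia and retinal injury gave 2 calls in edgeR, both lower with Olig3 than with GFP. With Olig2, 0 of 8 were called by edgeR, DESeq2 or limma-voom, and 4 were lower at an unadjusted edgeR p under 0.05 (2.08% of all genes). With Olig3, edgeR called 2, DESeq2 3 and limma-voom 2, and 6 were lower at an unadjusted edgeR p under 0.05 (6.37%). Between Olig3 and Olig2, edgeR and limma-voom called 0 and DESeq2 2. For the 8 genes, the summed level before scaling was 392 to 694 CPM with Olig2, 131 to 300 with Olig3 and 1020 to 1610 with GFP, the same separation from GFP as for Cryab. Vim, the intermediate filament vimentin of Müller glia, had 197, 102 and 111 CPM with Olig2, 32.7, 69.0 and 30.1 with Olig3 and 202.5, 294 and 545 with GFP. It was lower with Olig3 (edgeR log2 change -2.99, SE 0.452, Benjamini-Hochberg adjusted p = 0.0363) and had an adjusted p of 0.678 with Olig2. Edn2, an endothelin induced in injured photoreceptors, had 117, 114 and 119 CPM with Olig2, 9.29, 55.8 and 22.7 with Olig3 and 200.2, 260.5 and 252 with GFP. Edn2 too was lower with Olig3 (edgeR log2 change -3.04, SE 0.493, adjusted p = 0.0363). Stat3 averaged 129.9 CPM with Olig2, 90.6 with Olig3 and 219 with GFP, and Serpina3n 88.9, 22.7 and 122 CPM, neither past the test. Lcn2, named after its values were seen, averaged 79.7 CPM with Olig2, 46.4 with Olig3 and 52.0 with GFP, and the groups overlapped. Gfap, the filament of reactive astrocytes and Müller glia, named after its values were seen, had 7.28, 19.6 and 6.46 CPM with Olig2, 0, 27.3 and 0 with Olig3 and 125, 78.6 and 129 with GFP. Both edgeR calls ended on leaving out any of the 8 libraries other than Olig3 library 2, since 0 genes of the lists then passed with Olig3. Without Olig3 library 2, 10 genes of the lists passed. The part of glial cells in the level of Cryab was not tested.

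As a set, resident Müller glia markers did not separate in this way with Olig2. Their median difference in mean log2 CPM against GFP was -0.03 with Olig2 and -1.01 with Olig3, with 0 of 12 past the edgeR test in either. At an unadjusted edgeR p under 0.05, 2 were higher and 2 lower with Olig2, and 1 higher and 3 lower with Olig3. Of all 15609 genes, 407 were higher and 324 lower with Olig2 at that p, and 899 higher and 995 lower with Olig3. DESeq2 called 0 and 2 of the 12 and limma-voom 0 and 1. Clu averaged 1870 CPM with Olig2, 1073 with Olig3 and 1887 with GFP, Apoe 1760, 947 and 1659, Car2 1003, 1377 and 643 and Dkk3 212, 119 and 239.6 CPM. With Olig2, 2 of the 12 lay below all GFP libraries and 2 above, as 1304 and 1322 of all 15609 genes did. Named after their values were seen, Slc1a3 (57.8 CPM with Olig2, 52.8 with Olig3, 164 with GFP) and Sox9 (19.0, 18.8 and 49.3 CPM) lay below with both factors. Glul (241 CPM with Olig2, 103 with GFP) and Car2 lay above with Olig2. Of 7 astrocyte genes 5 were tested and 0 passed in edgeR or limma-voom, with 0 and 1 called by DESeq2 against GFP. At an unadjusted edgeR p under 0.05, 1 was higher and 1 lower in each comparison with GFP. In mean log2 CPM, 2 of the 5 were higher and 3 lower with each factor. Aldoc averaged 958 CPM with Olig2, 884 with Olig3 and 598 with GFP, and Slc1a2 167, 254 and 131.5 CPM. Aldh1l1 lay the other way, 3.49-fold below GFP with Olig2 and 4.89-fold with Olig3, and its libraries overlapped those of GFP. Agt was 1.44-fold and 5.52-fold below GFP, also with overlap. Oligodendrocyte genes, of which 4 of 9 were tested, also gave 0 calls in all 3 tools and 0 at an unadjusted p under 0.05, and Mobp, Cldn11 and Sox10 had no count in any library. Pigment epithelium genes had 0 to 76 counts per library in sum, and Rpe65 had none. Genes of cornea and ciliary body had 63 to 355, with Kera and Lum at 0.

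Ganglion cell markers were lower beside Cryab as well, though 0 of 11 tested passed in edgeR in any comparison. With Olig2, 5 of them were lower at an unadjusted p under 0.05 (2.08% of all genes), and with Olig3 6 (6.37%). DESeq2 called 0 and 2, and limma-voom 0 and 0. Nefm, a neurofilament subunit of large axons, had 22.8, 137.8 and 33.0 CPM with Olig2, 69.6, 119.6 and 8.80 with Olig3 and 567, 197 and 252 with GFP. The factor libraries all lay below the GFP libraries, as for Cryab. Gap43, a growth cone protein, averaged 34.3 CPM with Olig2, 9.32 with Olig3 and 239 with GFP. Rod genes lay the other way, with medians of 1.06 with Olig2 and 1.10 with Olig3, and Slc24a1, the rod sodium-calcium exchanger, was higher with Olig3 (1290 CPM against 519 with GFP, edgeR log2 change 1.31, SE 0.217, adjusted p = 0.0363). That call too ended without any of the 8 libraries other than Olig3 library 2. Whether the share of ganglion cells or rods has a part in the level of Cryab was not tested.

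The genes with the most similar patterns differed between Cryab and the lens-type crystallins. Likeness was Pearson's r of log2(CPM + 1) over the 9 libraries, among 12729 tested genes that are no members and carry no predicted or clone name. Nearest to Cryab were Tapbp (r = 0.966), a loader of class I histocompatibility molecules, Kif3c (0.955), a neuronal kinesin, Ptpn1 (0.955), a phosphatase, Lgals3 (0.950), a galectin of activated phagocytes and glia, Slc17a6 (0.945), the vesicular glutamate transporter of ganglion cells, Tprgl, Syngr3 and Hgsnat (0.940 each). Lgals3 averaged 9.98 CPM with Olig2, 7.36 with Olig3 and 148 with GFP, and Slc17a6 15.0, 11.7 and 125 CPM. Nearest to the lens-type sum were Hmga1 (r = 0.898), Pelo (0.890), Nedd4 (0.889), Jmjd8 (0.879), Fkbp1a (0.878), Nek1 (0.874), Plxna2 (0.873) and Hspa9 (0.873). Hmga1, a chromatin protein, was at 65.2 CPM with Olig2, 91.9 with Olig3 and 118 with GFP. Pelo, a ribosome rescue factor, was at 0, 0.545 and 1.90 CPM in these groups, and Nedd4, a ubiquitin ligase, at 321, 347 and 356 CPM. The 16 values are the highest of many and describe these 9 libraries.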

How the data were processed

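The authors deposited 1 table of raw read counts per gene for the 9 libraries. The submitters' processing notes name FastQC, HISAT2 and HTSeq and the mouse build mm10, and the sources used here give no version, filter or strand setting. All columns matched a library by name. The members and the 14 lists (137 genes, 136 in the table, Lim2 not analysed here) were chosen with earlier results of these data known.

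Tests used edgeR 4.0.16 under R 4.3.3, with TMM factors and filterByExpr. The quasi-likelihood fit had a mean per group for all 9 libraries, a common dispersion of 0.532 and 6 residual degrees of freedom, and p was adjusted by Benjamini-Hochberg over 15609 genes, with a threshold of 0.05. The steps were run on simulated data with a lower dispersion than here and changes only in genes of higher counts. That run therefore does not cover genes near 0 counts, as the lens-type members are with Olig2. Folds are ratios of group means of CPM. Against a group without counts the floor of 3 counts over the group was used. With 1 to 3 counts, the ratio of pooled counts has its 95% counting interval. So has the ratio of GFP to Olig2 for members with up to 12 counts over the Olig2 group. The floor and the pooled ratios use library totals without TMM, so they are not on the scale of the folds of means. List medians use differences of mean log2 CPM (prior count 2). Exon lengths and coordinates are those of GENCODE release M21 of mm10 (1-based), and start regions come from RefSeq for GRCm38.p6. Named were all members, up to 4 genes of each list with the highest mean CPM, listed genes past the threshold and the 8 genes most like Cryab and the lens-type sum. Not every gene so taken is reported here, and exceptions are marked. Alternatives were RLE and upper quartile factors, 2 other filters, DESeq2 1.42.0, voom of limma 3.58.1, fits of the pair of groups alone, a replicate block, an adjusted p of 0.1, leaving out each library, the 3 libraries richest in Malat1 or the 2 Olig3 libraries with fewest detected genes, and unscaled CPM. Libraries of a group differed by more than counting noise, with a chi-square of at least 29.5 per degree of freedom.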

Additional observations from a re-analysis of the deposited data

How the results depend on the processing

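No member changed sign against GFP under any of the up to 20 alternatives in which it was tested, while Cryab and Cryba4 did so between Olig3 and Olig2, and Crybb1 came to 0 there without Olig3 library 2, its only one with reads. Sizes moved more: log2 changes with Olig2 ran from -12.09 to -5.55 for Crybb3 and from -11.35 to -5.04 for Cryba4, and with Olig3 from -5.10 to -1.45 for Cryaa. With a filter of 10 CPM in 3 libraries, 3 members were not tested. Members past the threshold between Olig2 and GFP (0 in edgeR with all libraries) were 9 with no filter on low counts, 8 in DESeq2, 4 with only the groups compared and 7 without the 2 Olig3 libraries with fewest detected genes. Leaving out 1 library gave 0 to 5, the 5 without Olig3 library 3. Between Olig3 and GFP (0) they were 8 with no filter, 2 in DESeq2, 1 in limma-voom and 1 at an adjusted p of 0.1, both Cryab, and 0 to 1 without 1 library, the 1 being Cryab without Olig3 library 2. Between Olig3 and Olig2 (0) they were 5 with no filter and 3 in DESeq2. Genes of the lists past the threshold between Olig2 and GFP (0) were 21 with no filter, 6 in DESeq2, and 1 each with only the groups compared and without the 2 Olig3 libraries. Between Olig3 and GFP (3) they were 34 with no filter, 19 in DESeq2, 6 in limma-voom, 5 at an adjusted p of 0.1, 5 without the 3 libraries richest in Malat1, 0 with only the groups compared, 0 without the 2 Olig3 libraries, and 0 to 10 without 1 library. Between Olig3 and Olig2 (0) they were 6 with no filter, 2 in DESeq2, 1 without the libraries richest in Malat1 and 0 to 4 without 1 library. Of all genes, 8, 32 and 6 were past the threshold in the 3 comparisons, with ranges of 0 to 176, 0 to 556 and 0 to 160 over the alternatives. The cause was not tested. The labels do not say whether replicate numbers pair libraries. The r of deviations from group means was -0.063 to 0.113 for the same number and -0.115 to 0.075 for other numbers. Of 9 libraries, 3 were closest to one of their own number, and with 3 libraries a group these values cannot decide it. With the replicate block 3 members (Cryaa, Cryba1 and Crybb2) passed between Olig2 and GFP and 0 in the other comparisons, with 0 genes of the lists in each. In a single library, levels under 0.430 to 0.560 CPM are not measurable at this depth.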

Other observations

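Crym, which encodes a thyroid hormone binding protein first known as mu crystallin of the marsupial lens, did not follow the lens-type crystallins. It had 172, 191.5 and 159 CPM in the Olig2 libraries, 75.9, 96.8 and 9.39 in the Olig3 libraries and 506, 549 and 2371 in the GFP libraries. GFP library 3, the lowest of its group for every lens-type member, was the highest for Crym. The edgeR adjusted p was 0.524 with Olig2 and 0.0698 with Olig3 against GFP. Cryzl1, a quinone reductase-like protein named after zeta crystallin, averaged 147 CPM with Olig2, 145 with Olig3 and 108 with GFP. Crybg3, a large protein with beta gamma crystallin repeats, averaged 37.1, 54.0 and 29.3 CPM in the same groups, and Cryz 29.4, 37.1 and 27.0 CPM. Of the 5 tested genes with such names 0 passed the edgeR test in any comparison. At an unadjusted edgeR p under 0.05, 1 was lower with Olig2 than with GFP (2.08% of all genes). With Olig3, 1 was lower (6.37%) and 1 higher, as were 899 of all 15609 genes. DESeq2 and limma-voom each called 0 with Olig2 and 1 with Olig3.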
